A study of Homo sapiens with 6 samples.

Results

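COMMD proteins are 10 small relatives, COMMD1 to COMMD10, that share a C-terminal COMM domain. Their genes were matched by name in a deposited table of 58735 gene rows, and each name matched 1 row. The family was chosen by the lower COMMD8 value in the same comparison that is described here, knockdown against control, so the values of its members in that comparison are a description and carry no test. The other 9 genes came in by name as relatives of COMMD8.

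The libraries come from Huh7, an established human liver cancer cell line grown with fetal bovine serum in RPMI-1640. There were 3 libraries with a control short hairpin RNA (labelled shcontrol) and 3 with a hairpin that lowers TRIM15 (labelled shTRIM15), which encodes a RING-type ubiquitin ligase. How many hairpins were used, their sequences and whether the replicates are separate cultures are not given in the sources used here, so p-values measure only the spread between these libraries. Levels are FPKM, in which the authors divided reads by gene length and sequencing depth, and values after ± are SDs over the 3 libraries of a group.

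COMMD proteins assemble with the coiled-coil proteins CCDC22 and CCDC93, and this assembly joins the Retriever trimer of VPS35L, VPS26C and VPS29 to form Commander, together with DENND10. Commander sits on endosomes and, with the cargo adaptor SNX17 and the actin-building WASH complex, returns membrane receptors to the cell surface. In liver COMMD1 is known for copper export and for limiting NF-kB.

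Depth was 17332508 to 19556855 reads per library, counted back from the FPKM values. TRIM15 itself stood at 5.17, 5.09 and 4.89 FPKM in control and at 3.23, 2.11 and 2.51 FPKM in knockdown libraries. Its knockdown mean was 51.8% of control (log2 fold change -0.75, SE 0.106, limma adjusted p = 0.00416). Fold changes were taken after adding 1 to FPKM, which understates them at low levels. Adding 0.1 instead gave -0.94 for TRIM15. All 11 hepatocyte markers examined were at 0.5 FPKM or more in every library. The 4 endothelial markers were below that level, with CDH5 at 0, and of the immune markers 1 of 4, LYZ, was above it. Of 5 fibroblast markers, COL1A1, COL1A2 and LUM were above it. The summed fibroblast list was 62.4 to 66.1 FPKM in control and 55.5 to 57.7 in knockdown, and the hepatocyte list 2733 to 2747 and 2595 to 2635, and their part in the results was not tested.

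The 3 COMMD genes that were lower in the knockdown are the 3 whose 3' UTR (the untranslated end of the mRNA) holds one short sequence, ATGAATA. Among 15864 words of 7 bases, this word had the most negative association with fold change across 11524 tested genes with a 3' UTR, and TGAATAA, which overlaps it by 6 bases, came second. The places where the first word occurs in the family are shown because it is in the 3 lower members and in 0 of the 7 others. Capitals mark the word, the strand is that of the mRNA, and the sequences are GENCODE 29 transcripts on GRCh38.
COMMD8: ctggaaatgATGAATAccagtcctat
COMMD10: tggtaattacATGAATAaaattaagaa
COMMD7: tggttagatgATGAATAaaaaggttct

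In COMMD8 the word lies at chr4:47451629-47451635 (minus strand), 10 bases into a 3' UTR of 849 bases, in its 1 coding transcript. The COMMD10 word is at chr5:116292895-116292901 (plus strand), base 406 of 798, and is in 3 of 4 coding transcripts. The COMMD7 word is at chr20:32702717-32702723 (minus strand), base 659 of 691, in both of its 2 coding transcripts. The 3' UTR is 28.4% G and C in COMMD8, 31.8% in COMMD10 and 49.5% in COMMD7. In COMMD7 and COMMD10 the first word runs on into the second, and COMMD10 has another copy of the second word further on. COMMD2 (2 copies) and COMMD3 (1 copy) hold the second word without the first. COMMD1, COMMD4, COMMD5, COMMD6 and COMMD9 hold neither in the 3' UTR, although the coding sequence of 2 of 5 COMMD4 transcripts holds the first. These are exact matches of the letters in the mRNA strand of the longest annotated 3' UTR, and which transcript end Huh7 cells use was not measured.

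COMMD8 had the highest mean level of the family in control cells. Its gene (ENSG00000169019) lies on chromosome 4, 47450796 to 47463719 on GRCh38, and overlaps no other annotated gene. It was at 13, 13.1 and 13.6 FPKM in the control libraries and at 7.595, 6.448 and 6.775 FPKM in the knockdown libraries. Every knockdown library was far below every control library. The knockdown mean was 52.4% of control (6.94 ± 0.591 against 13.25 ± 0.336 FPKM, n = 3), a log2 fold change of -0.85 (SE 0.056) on the log2(FPKM + 1) scale. These levels rest on 409 to 437 reads in control and 210 to 253 in knockdown. The lowest control count has an exact Poisson 95% interval of 370.3 to 450.6, and the highest knockdown count one of 222.8 to 286.2. These intervals cover counting error only, on counts not scaled to depth. COMMD8 was chosen for this difference, so they are no test of it.

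COMMD10 was the second member that was clearly lower. The gene (ENSG00000145781, chromosome 5, 116084991 to 116412762) was at 4.74, 4.99 and 5.59 FPKM in control and at 2.99, 3.25 and 2.98 FPKM in knockdown. The groups did not overlap, and the knockdown mean was 60.2% of control (log2 fold change -0.58, SE 0.0628). With 0.1 added to FPKM in place of 1, the log2 fold change was -0.71. COMMD10 is thinly covered, with 129 to 158 reads in the knockdown libraries, and 4 annotated noncoding genes or pseudogenes lie inside it on the opposite strand. Their own mean levels were below 0.8 FPKM in both groups. One of them, AC018752.1, had a mean of 0.723 FPKM in control and 0 in knockdown, and its part in the COMMD10 values was not tested.

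COMMD7 changed less. The gene (ENSG00000149600, chromosome 20, 32702691 to 32743997) was at 10.75, 12.2 and 11.2 FPKM in control and at 8.99, 9.21 and 8.40 FPKM in knockdown, again without overlap. The knockdown mean was 77.9% of control (log2 fold change -0.33, SE 0.0539). A readthrough gene model, FO393400.1, covers nearly the same region on the same strand and is listed at 0 in all libraries. The sources used here do not say how reads shared by 2 gene models were assigned.

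**Figure D1:**
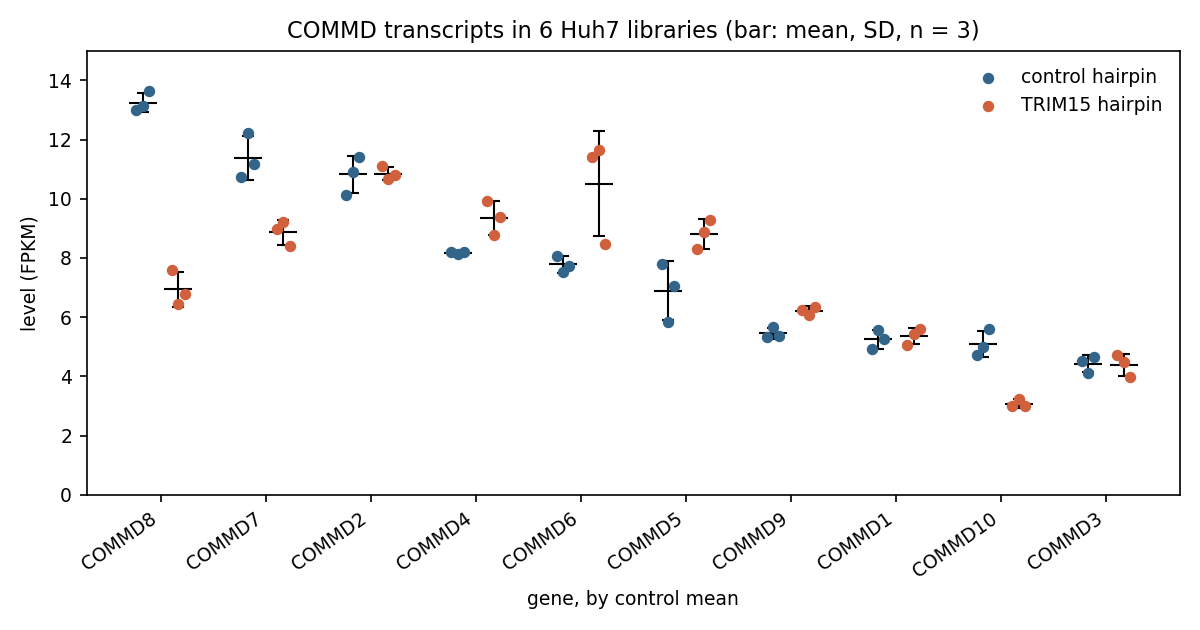
Level in FPKM (vertical axis) of each COMMD gene in every library, ordered by control mean. Points are libraries (blue, control hairpin; orange, TRIM15 hairpin), bars are the mean and SD (n = 3). COMMD8, COMMD10 and COMMD7 are lower in all 3 knockdown libraries, while COMMD4, COMMD5, COMMD6 and COMMD9 are higher in all 3.

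In 4 members the knockdown libraries were all above the control libraries. COMMD6, which in humans is little more than the COMM domain, was at 8.08, 7.53 and 7.74 FPKM in control and at 11.4, 11.7 and 8.46 FPKM in knockdown (135% of control, log2 fold change 0.38, SE 0.109). Knockdown replicate 3 lay close to the controls, and without it the log2 fold change was 0.51. COMMD5 was at 7.81, 5.83 and 7.06 FPKM in control and at 8.29, 8.87 and 9.28 FPKM in knockdown (127.7%, log2 fold change 0.32, SE 0.0929). Control replicate 2 was the lowest of the COMMD5 values, and without it the log2 fold change was 0.22. COMMD5 overlaps the zinc finger gene ZNF7 on the opposite strand over 6468 bases of its length, and the ZNF7 means were 1.65 and 1.64 FPKM.

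COMMD4 and COMMD9 were higher by smaller amounts. COMMD4 was at 8.18, 8.14 and 8.22 FPKM in control and at 9.91, 8.78 and 9.37 FPKM in knockdown (114.3% of control, log2 fold change 0.17, SE 0.0448). COMMD9, known for a role in Notch receptor recycling, was at 5.34, 5.67 and 5.35 FPKM in control and at 6.25, 6.07 and 6.34 FPKM in knockdown (114.1%, log2 fold change 0.16, SE 0.0395). In both genes the gap between the groups was narrow beside the differences of COMMD8 and COMMD10.

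The other 3 members had overlapping groups, with knockdown means at 98.9 to 102.1% of control. COMMD1, the copper and NF-kB member, had a control level of 5.25 ± 0.32 FPKM and a knockdown level of 5.36 ± 0.277 FPKM (log2 fold change 0.03, SE 0.0544). COMMD2 was at 10.82 ± 0.637 and 10.85 ± 0.224 FPKM (0.01, SE 0.045), and COMMD3 at 4.43 ± 0.285 and 4.38 ± 0.381 FPKM (-0.01, SE 0.067). The COMMD1 gene shares 81 bases with CCT4, a highly expressed chaperonin subunit gene on the opposite strand. COMMD3 shares most of its span with the readthrough model COMMD3-BMI1, which is listed at 0 in all libraries.

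In a limma fit over all 14847 genes with at least 0.5 FPKM in 3 or more libraries, 5 of the 10 members were past an adjusted p of 0.05. All 10 members passed that filter in both groups. COMMD7, COMMD8 and COMMD10 were lower and COMMD4 and COMMD9 higher, beside 19% of all tested genes past the threshold, 10.1% lower and 8.93% higher. The groups did not overlap in 7 members (3 lower, 4 higher), beside 37.8% of all tested genes. Nothing is read from these counts, since COMMD8 chose the family. The median log2 fold change was 0.02 over the 10 members, 0.03 over the 9 relatives of COMMD8 and 0.00143 over all tested genes. The selection on COMMD8 carries into every alternative fit, so the calls across the 14 alternatives are a description too. COMMD7, COMMD8 and COMMD10 were past the threshold in each of them. COMMD4 was past it in 6 and COMMD9 in 7 of the 14, and each in 1 of 6 fits that left out 1 library: COMMD4 without knockdown replicate 2 (log2 fold change 0.21), COMMD9 without control replicate 2 (0.19). The count of members past the threshold was 3 without control replicate 3 and 3 without knockdown replicate 1, and it was 7 (4 higher, 3 lower) with a stricter filter or with voom on whole reads. COMMD5 and COMMD6 were past it in 3 fits each, among them those without control replicate 1 for COMMD5 (0.40) and without knockdown replicate 3 for COMMD6.

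The order of the members by level differed between the groups. In control, COMMD8 (13.25 FPKM) stood above COMMD7 (11.4) without overlap, and COMMD7 overlapped COMMD2 (10.8). COMMD4 (8.18), COMMD6 (7.78) and COMMD5 (6.90) followed, of which COMMD6 and COMMD5 overlapped. COMMD9 (5.45), COMMD1 (5.25) and COMMD10 (5.11) overlapped their neighbours in the order and could not be ranked, and COMMD3 (4.43) was below them. In knockdown, COMMD2 (10.85 FPKM) and COMMD6 (10.5) came first and overlapped, COMMD8 (6.94) was sixth, and COMMD10 (3.07) was below COMMD3 (4.38) without overlap. FPKM compares genes per length, and gene length here is the deposited length of the gene row, 1766 bases for COMMD8 and 6779 for COMMD4.

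The 10 genes summed to 77.5, 78.1 and 80.1 FPKM in control and to 76.3, 74.8 and 72.0 FPKM in knockdown. COMMD8 made up 16.78, 16.8 and 17.02% of that sum in control and 9.95, 8.62 and 9.41% in knockdown. In whole reads, which are scaled to neither gene length nor depth, the family summed to 4984, 4923 and 5167 in control and to 5503, 5578 and 4870 in knockdown. The mean of these sums was higher in knockdown (5317 against 5025 reads), where the mean in FPKM was lower (74.4 against 78.6), and the groups overlapped in reads and not in FPKM. COMMD8 made up 8.36% ± 0.0815 of the family's reads in control and 4.31% ± 0.282 in knockdown, a lower share on either scale. COMMD7, COMMD8 and COMMD10 together made up 37.9% ± 1.04 in control and 25.4% ± 0.235 in knockdown. Without COMMD8 the sum was 65.3 ± 1.03 FPKM in control and 67.4 ± 1.93 in knockdown, which overlapped. In bulk RNA, a different level per cell and a different mix of cells cannot be told apart.

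Outside the family, the word went with lower values as well. The first word is in 17.2% of the 11524 tested genes with a 3' UTR and the second in 21.0%. Of 1984 genes outside the family with the first word, 30.3% were lower and 2.77% higher, and the median log2 fold change was -0.09. Of 9530 without it, 8.21% were lower and 12.5% higher, and the median was 0.02. The scan ranked the same 2 words first and second with the COMMD genes left out. The words were ranked on these same fold changes, so the counts describe the association and do not test it. Most genes with the word did not pass the threshold. The 3 lower COMMD genes were already called lower in this comparison, and COMMD8 chose the family. Their places among the carriers are therefore a description and no test. Of the 1984 carriers, 2 had a log2 fold change at or below that of COMMD8, 33 at or below that of COMMD10 and 202 at or below that of COMMD7. Among the 9530 genes without the word, 98.96% were at or below COMMD6 and 97.8% at or below COMMD5. Whether the word matches part of a hairpin was not tested.

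**Figure D2:**
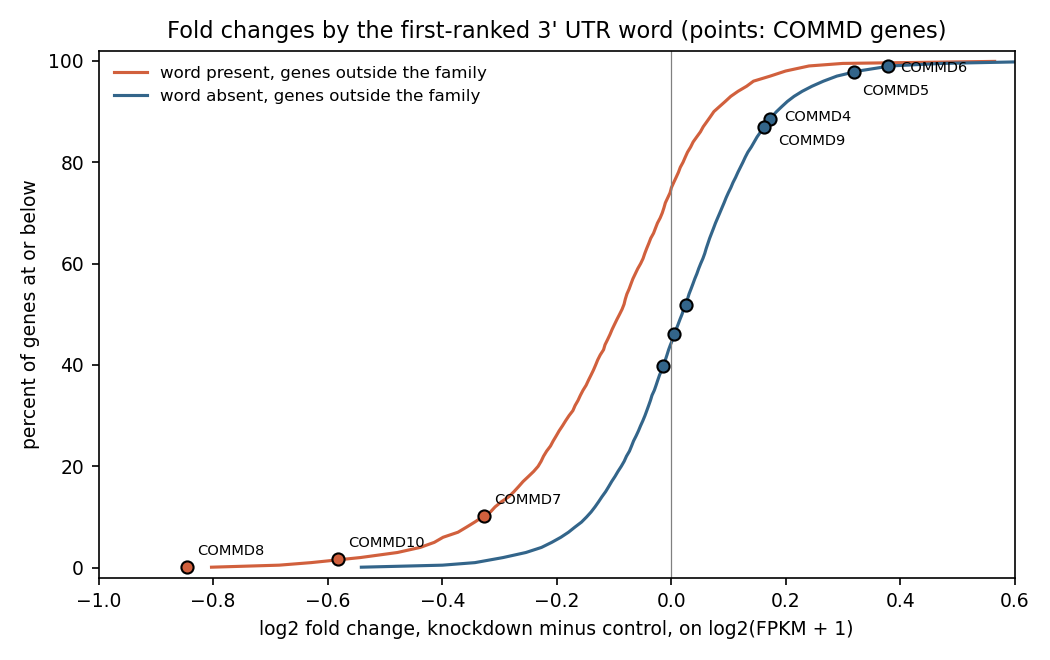
Share of genes outside the family at or below each log2 fold change (horizontal axis, knockdown minus control on log2(FPKM + 1)), for 1984 genes with the first-ranked 3' UTR word (orange) and 9530 without it (blue). Points are the COMMD genes, placed on the curve of their own class. COMMD8, COMMD10 and COMMD7 sit in the lower tail of the orange curve, and the 7 other members lie from -0.01 to 0.38 along the blue one.

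Of the 3 nearest tested genes on either side of COMMD8, 0 of 6 passed the threshold in limma, 0 of 6 had an unadjusted p under 0.05 and 0 of 6 passed with voom on whole reads. The highest value was that of the pseudogene RAC1P2 at 726.4 kb (log2 fold change 0.31, limma adjusted p = 0.243), which rests on 23 to 49 reads per library. The nearest coding genes were GABRB1 at 24.4 kb, a GABA receptor subunit gene (log2 fold change -0.16, limma adjusted p = 0.187, and 0.0384 without control replicate 1), ATP10D at 21.6 kb, a lipid flippase gene (-0.13, adjusted p = 0.217), and NFXL1 (-0.01, adjusted p = 0.966). Around all 10 members, 11 of 60 neighbours passed (1 higher, 10 lower), or 18.3%, beside 19% of all tested genes. With voom on whole reads 15 passed (5 higher, 10 lower), and 7 passed without knockdown replicate 1 and 7 without knockdown replicate 3. The clearest contrast lay beside COMMD3: BMI1, a Polycomb gene that starts 0.903 kb downstream on the same strand, fell from 9.32 ± 0.586 FPKM in control to 5.87 ± 0.164 in knockdown (-0.58, SE 0.0488, adjusted p = 0.000625), while COMMD3 was at -0.01. The first 3' UTR word is in 12 of the 60 neighbours, beside 17.2% of tested genes with a 3' UTR. Some of the 60, such as pseudogenes, had no 3' UTR to scan. Of the 12, 4 were lower and 0 higher, beside 30.3% lower and 2.77% higher of all carriers outside the family. With 12 genes, these counts are near those shares. BMI1 holds both words and COMMD3 the second alone. Of the 4 COMMD3 neighbours with the first word, BMI1 alone fell. Other neighbours that fell were CCT4, which overlaps COMMD1 (-0.12), WWTR1 at 1.76 kb and PFN2 at 212.4 kb from COMMD2 (-0.30 and -0.16), NOL4L at 117.6 kb from COMMD7 (-0.25), TRIM44 at 451.3 kb from COMMD9 (-0.30) and KLF12 at 1530 kb from COMMD6 (-0.36), and each held in all 6 fits without 1 library. B3GNT2 at 48.9 kb from COMMD1 (-0.23), LMO7 at 71 kb from COMMD6 (-0.12) and PDHX at 1249 kb from COMMD9 (-0.16) fell and MAPRE1 at 75.9 kb from COMMD7 (0.10) rose in calls that held in 2 of those 6 fits for B3GNT2 and in 1 for each of the others. The highest adjusted p was 0.0634 for B3GNT2 and 0.127 for LMO7 without knockdown replicate 1, 0.0924 for PDHX without knockdown replicate 3 and 0.132 for MAPRE1 without knockdown replicate 2.

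Of the 6 other subunits of Commander, 2 rose and 0 fell in limma, beside 8.93% of all tested genes higher and 10.1% lower. With so few genes, a count of 0 lower is near that background. Of the 6, 0 had a lower value at an unadjusted p under 0.05 and 0 fell with voom, and the median was 0.05. The first word is in the longest 3' UTR of 0 of the 6, beside 17.2% of tested genes with a 3' UTR. With 6 genes, 0 is near that share. In VPS35L, 1 of 10 coding transcripts holds the word in another 3' UTR. CCDC22, the scaffold that binds the COMMD ring, was at 5.34, 5.86 and 4.77 FPKM in control and at 6.93, 6.52 and 6.75 FPKM in knockdown (log2 fold change 0.29, SE 0.0655, adjusted p = 0.023). VPS26C of Retriever was at 3.53, 3.12 and 3.38 FPKM in control and at 4.22, 3.85 and 4.14 FPKM in knockdown (0.22, SE 0.0553, adjusted p = 0.0329). In both genes all knockdown libraries were above all control libraries. Without knockdown replicate 1 or knockdown replicate 3, 0 of the 6 passed, and with any other library left out 1 passed. Each call held in 2 of 6 fits without 1 library, with the highest adjusted p (0.0742 for CCDC22, 0.102 for VPS26C) when knockdown replicate 1 was left out.

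The remaining Commander subunits had overlapping groups. CCDC93, the partner of CCDC22, was at 10.3 ± 0.458 and 10.5 ± 0.168 FPKM (limma adjusted p = 0.654). VPS29, which Retriever shares with retromer, was the most abundant subunit at 24.7 ± 0.779 and 24.9 ± 1.51 FPKM (adjusted p = 0.928). DENND10, listed under its older symbol FAM45A, was at 5.20 ± 0.467 and 5.24 ± 0.157 FPKM (adjusted p = 0.916). VPS35L, the Retriever backbone, was lowest at 0.934 ± 0.14 and 1.04 ± 0.0534 FPKM (adjusted p = 0.583), a level at which the log2(FPKM + 1) scale understates fold changes.

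**Figure D3:**
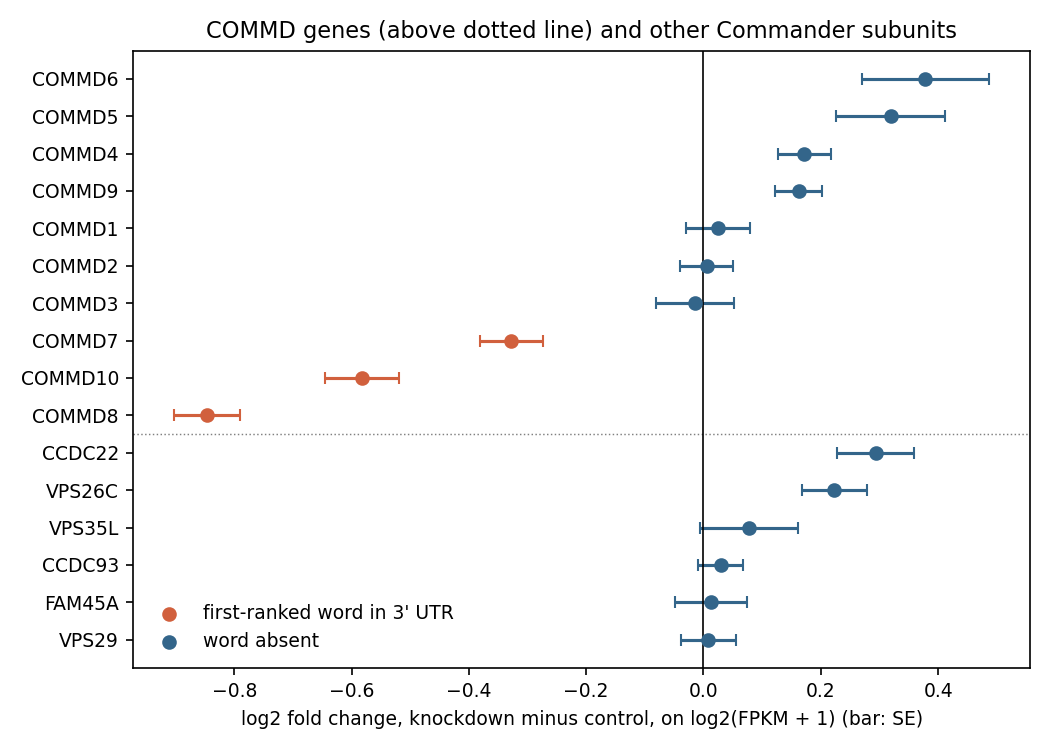
Log2 fold change (horizontal axis, knockdown minus control on log2(FPKM + 1), bar SE) of the 10 COMMD genes, above the dotted line, and the 6 other Commander subunits, below it. Orange points are genes with the first-ranked word in the longest 3' UTR, blue points genes without it there. The 3 orange points, at -0.85, -0.58 and -0.33, are all left of 0, and the 6 lower rows lie between 0.0084 (VPS29, which is just below 0 with upper quartile scaling) and 0.29.

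Genes that work with Commander were counted by role. For each list from here on, the shares of all tested genes were 8.93% higher and 10.1% lower. In a list as short as the first, 0 higher is near that background. In the WASH complex, which builds actin on endosomes, 0 of 9 rose in limma (1 at an unadjusted p under 0.05, 1 with voom) and 2 fell: the capping protein gene CAPZA1 (-0.14, SE 0.0233) and WASHC4 (-0.15, SE 0.041), of which WASHC4 held in 1 of 6 fits without 1 library (highest adjusted p = 0.124 without knockdown replicate 3). Among 11 tested retromer and sorting nexin genes, 1 rose and 2 fell. SNX17, the adaptor that hands cargo to Commander, rose from 22.5 ± 0.546 FPKM in control to 25.95 ± 0.59 in knockdown (0.20, adjusted p = 0.00495). SNX5 (-0.18) and the retromer regulator TBC1D5 (-0.26) fell.

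Cargo genes went both ways, with 1 higher and 3 lower of 12 tested. SLC12A2, a sodium, potassium and chloride cotransporter gene, fell from 16.7 ± 0.493 FPKM in control to 13.2 ± 0.416 in knockdown (-0.32, adjusted p = 0.00161). NOTCH2 (-0.13) and APP (-0.08) fell by less and held in 1 and 2 of 6 fits without 1 library, with the highest adjusted p without knockdown replicate 1 for NOTCH2 (0.101) and without knockdown replicate 3 for APP (0.0726). Levels of receptor protein at the cell surface were not measured.

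Of 15 tested copper handling genes, 0 rose in limma (1 at an unadjusted p under 0.05, 1 with voom) and 4 fell. All tested genes were 8.93% higher and 10.1% lower, and in 15 genes 0 higher is near that background. XIAP, whose product ubiquitinates COMMD1, fell from 6.26 ± 0.21 FPKM in control to 4.82 ± 0.163 in knockdown (-0.32, adjusted p = 0.00333). The others were the cytochrome oxidase copper chaperone SCO1 (-0.24), the metallothionein MT2A (-0.23) and the superoxide dismutase SOD1 (-0.13). SOD1 held in 5 of 6 fits without 1 library and SCO1 and MT2A in 2 of 6 each, and MT2A held in 4 of the 8 other alternatives. Over the fits without 1 library, the adjusted p was highest for SCO1 without knockdown replicate 3 (0.0554) and for MT2A (0.0893) and SOD1 (0.0506) without control replicate 2. The copper exporter gene ATP7B, a partner of COMMD1, was at -0.02 (adjusted p = 0.798) and its relative ATP7A was too low to test.

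NF-kB genes, on which COMMD1 acts at the protein level, were mixed. Of 12 factors and inhibitors, 3 rose and 1 fell. NFKBIB (0.34), IKBKG (0.32) and NFKB1 (0.19) rose, and CHUK (-0.18) fell in a call that held in 1 of 6 fits without 1 library (highest adjusted p = 0.086 without knockdown replicate 3). RELA, the main COMMD1 target of the pathway, was at 0.08 (adjusted p = 0.241). Of 11 NF-kB target genes, the chemokine gene CXCL1 rose from 139.3 ± 2.71 FPKM in control to 178.7 ± 3.87 in knockdown (0.36), while CXCL2 (-0.30) and SOD2 (-0.25) fell. Of 14 cullin ligase genes, CUL7 (0.15) rose and CUL2 (-0.19) and SKP1 (-0.15) fell. CUL7 and SKP1 held in 1 of 6 fits each, with the highest adjusted p without knockdown replicate 3 for CUL7 (0.0989) and without control replicate 3 for SKP1 (0.0727).

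Over these 7 lists, 23 of 83 tested genes (27.7%) were past the threshold, beside 19% of all tested genes. Of the 83, 7 were higher and 16 lower, beside 8.93% higher and 10.1% lower of all tested genes. With voom on whole reads 32 passed, 14 higher and 18 lower. Without control replicate 2 the count was 15, and 14 of the 23 (6 higher, 8 lower) held without any 1 library. List medians lay between -0.06 and 0.07. Of the 16 lower genes, 2 hold the first word in the longest 3' UTR, beside 17.2% of tested genes with a 3' UTR. Among such genes outside the family, 602 lower genes hold the word and 782 lower genes do not. NOTCH2 and SOD2, both lower, hold it in the 3' UTR of 1 other transcript each.

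**Figure D4:**
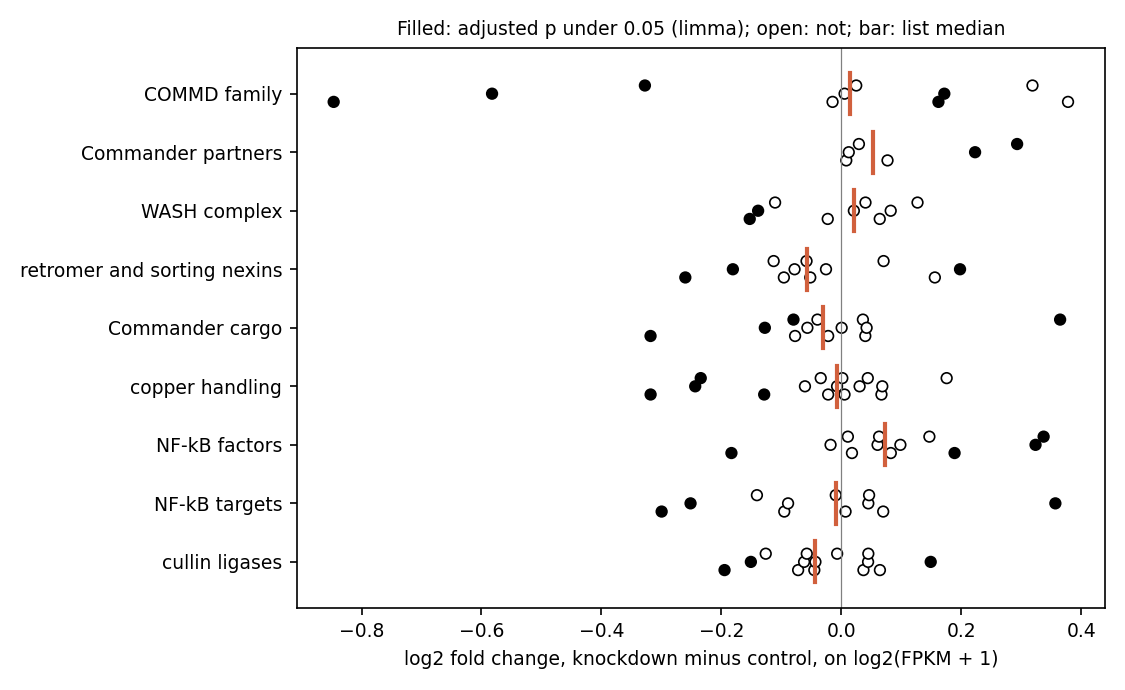
Log2 fold change (horizontal axis, knockdown minus control on log2(FPKM + 1)) of every tested gene in the COMMD family and in 8 lists of related genes (rows). Filled points were past an adjusted p of 0.05 in limma, open points were not, and the orange bar is the median of the row. COMMD8 and COMMD10 are the 2 lowest points, and the medians of all rows lie near 0.

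By their values over the 6 libraries, centred on each gene's control mean, the coding genes nearest to COMMD8 were UHMK1, USP46, PTP4A2, TRIM15 and TMEM123 (Euclidean distances 0.2155 to 0.287 on the log2(FPKM + 1) scale, among 11651 genes). UHMK1, USP46, PTP4A2 and TMEM123 hold both 3' UTR words. TRIM15 holds neither in its 3' UTR, although the coding sequence of 2 of its 3 coding transcripts holds the first. Both words are in 1165 of 11514 genes outside the family, and 417 of the 1165 were lower and 20 higher. These 5 genes were picked for values like those of COMMD8, and the words were ranked on the same fold changes. Their words are therefore a description and no test. COMMD10 ranked 39th and COMMD7 328th by this distance, and the other members ranked from 5108th (COMMD3) to 11553rd (COMMD6).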

How the data were processed

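The authors deposited 1 table of FPKM values with a gene length column, per the file headers, for 3 control and 3 knockdown libraries. Aligner, counter and use of strand are not given in the sources used here. The submitters' processing notes list the mouse build mm10, but all 58735 rows match the human GENCODE 29 annotation (GRCh38) in identifier, start, end and strand. FPKM times gene length gave whole reads for 100% of values (tolerance 0.01). For each gene log2(FPKM + 1) was taken, and genes with at least 0.5 FPKM in 3 or more libraries were compared with limma 3.58.1 in R 4.3.3 (mean-variance trend, two-sided, Benjamini-Hochberg over 14847 genes, threshold 0.05). The procedure was run on simulated data, in which the changed genes differed by more than most genes named here. That run therefore does not cover the small differences. Alternatives were another pseudocount (0.1), 2 filters, 2 scalings, no trend, a replicate block, voom on whole reads and each library left out.

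The 3' UTR was the longest over protein-coding transcripts (50 bases or more). Words of 7 bases in at least 100 genes were ranked by a regression of log2 fold change on presence, 3' UTR length and GC content, added after the data were seen. Named genes were all members and Commander subunits, up to 4 called genes per list, neighbours of COMMD8, called neighbours of members and the 5 nearest patterns. Not every gene taken is described, and RELA, ATP7A, ATP7B and ZNF7 were added for their role or position. Members and lists were chosen with earlier results of these data known. Protein sequences were not used here. Of the cargo list, 1 gene is counted and its own values are not reported here.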

Additional observations from a re-analysis of the deposited data

How the results depend on the processing

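Of 10 COMMD genes, 5 were past the threshold, and 3 with no filter, 3 with a replicate block, 3 to 4 without 1 library, and 7 with the stricter filter and with voom. Of the other Commander subunits, 2 were past it, and 0 with no filter, 1 with a replicate block and 0 to 1 without 1 library. Pathway genes went from 23 to 15 with no variance trend and to 15 to 20 without 1 library, and neighbours from 11 to 7 with no filter and to 7 to 10 without 1 library. Voom gave 32 pathway genes (14 higher) and 15 neighbours (5 higher). With no filter, 32030 genes are tested. The depth implied by the FPKM values differed from the summed reads by 1.04 to 1.27% in knockdown libraries. In control libraries it differed by -0.37 to -0.36%. Voom, which used the summed reads, had a median log2 fold change of 0.0234 over all tested genes, against 0.00143 in the main fit. The cause of the different counts was not tested otherwise. COMMD8's share of the family differed by -7.54 percentage points in FPKM and by -4.05 in reads, which are not scaled to gene length. Over all 6 libraries 8 of 9 neighbours in the level order overlapped, over control libraries 4 and over knockdown libraries 4. Differences near 0 changed sign. With upper quartile scaling COMMD2 was at -0.0029 and VPS29 at -0.00054, NFXL1 was at 0.00077 with quantile scaling, and with voom COMMD3 was at 0.0061 and NFXL1 at 0.019. Without 1 library, log2 fold changes ranged from -0.0125 to 0.0615 (COMMD1), -0.0367 to 0.0407 (COMMD2), -0.0587 to 0.0424 (COMMD3), -0.000134 to 0.0585 (CCDC93), -0.0218 to 0.0574 (VPS29), -0.0502 to 0.0552 (FAM45A) and -0.0565 to 0.038 (NFXL1). Same-numbered libraries showed no strong pairing. Their deviations correlated at 0.00862 to 0.0133, against -0.01415 to 0.0018 for differently numbered libraries. The replicate block moved all calls from 2824 to 1913 and added the COMMD8 neighbour RAC1P2 (0.31). With voom 4186 genes were called and with no filter 1888. The low counts of COMMD10 limit its precision.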
